A study of Rattus norvegicus with 4 samples.

Results

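Mybpc1 (ENSRNOG00000056493), the gene of the slow skeletal muscle form of myosin-binding protein C, was followed through the nuclei of rat orbitofrontal cortex, with the inhibitory interneurons as the cells of interest. It is 1 of the 25399 genes in the files and was matched by its symbol. It was chosen by its level in inhibitory nuclei, which was higher after methamphetamine (METH) than after saline, so every value of that comparison, in the inhibitory class and in its subtypes, is given as a description with no test. The study profiled male Sprague-Dawley rats 8 weeks old by single-nucleus RNA sequencing with 10x Genomics 3' chemistry. The METH group had been injected intraperitoneally with METH, a psychostimulant that acts through dopamine release, at 1 mg/kg for 7 days, and the saline group had received intraperitoneal saline for the same 7 days. All animals were wild-type. Tissue came from 4 animals per group and gave 2 libraries per group. The sources used here do not say which animals a library holds. A p-value therefore reflects only how far the libraries of a group lie apart, and that spread may be technical.

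Myosin-binding protein C sits on the thick filament of the sarcomere, where it binds myosin and titin and tunes the pull of the cross-bridges; the slow form is encoded by Mybpc1, the fast form by Mybpc2 and the cardiac form by Mybpc3. Cortical inhibitory neurons release GABA and fall into families named after the genes that mark them: fast-spiking Pvalb cells that target cell bodies and axon starts, Sst cells that target dendrites, Vip cells that mostly inhibit other interneurons, and Lamp5 cells, which include neurogliaform cells. In mouse visual cortex, 1 type of Vip interneuron has been named after Mybpc1. In the RefSeq annotation of the rat assembly GRCr8, protein-coding genes were ordered by start position. Those just before and after Mybpc1 are Sycp3, a synaptonemal complex gene, and Spic, an Ets-family transcription factor gene. Sycp3 was at 181 and 158 CPM in inhibitory nuclei of METH replicates 1 and 2, against 158 and 159 CPM in saline replicates 1 and 2 (log2 fold change 0.10, SE 0.08, adjusted p = 0.997 by edgeR's quasi-likelihood test), and Spic had 1 unique molecular identifier (UMI, 1 captured RNA molecule) in all.

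After filtering, 39129 nuclei were kept, 8944 and 7937 in METH replicates 1 and 2 and 14645 and 7603 in saline replicates 1 and 2. Saline replicate 1 stood apart, with many nuclei of low depth: its median was 1963 UMIs per nucleus, against 2895.5 and 2800 in the METH replicates and 3521 in saline replicate 2. Pairs of libraries shared between 23 and 69 cell barcodes, at most 0.672% of a library. Nuclei were clustered without Mybpc1, and 4449 nuclei (1155 and 798 in the METH replicates, 1616 and 880 in the saline replicates) fell in clusters named inhibitory neuron-like from markers such as Gad1, the gene of a GABA-synthesizing enzyme. The summed level of 7 inhibitory markers in this class was 4843 and 4871 CPM (a gene's UMIs per 1000000 UMIs summed over the same nuclei) in the METH replicates and 4392 and 4981 CPM in the saline replicates.

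Mybpc1 was a gene of inhibitory nuclei in this tissue. They held 1074 of its UMIs, 92.3% of those in all nuclei kept, while the other 7 named classes together held 74 in 32223 nuclei and stayed between 0 and 2.57 CPM in every library. Clusters left without a name held 15 more, 14 of them in saline replicate 1 at 5.09 CPM. In inhibitory nuclei the level was 90.4 CPM in METH replicate 1 (409 UMIs, 95% exact Poisson interval 81.8 to 99.6) and 80.1 CPM in METH replicate 2 (285 UMIs, 71.0 to 89.9). It was 53.1 CPM in saline replicate 1 (178 UMIs, 45.6 to 61.5) and 51.0 CPM in saline replicate 2 (202 UMIs, 44.2 to 58.6). Both METH libraries thus lay above both saline libraries, at 85.2 ± 7.30 CPM after METH and 52.0 ± 1.44 CPM after saline (SD, n = 2 each), a ratio of 1.64; these intervals, and all others here, cover counting error only. The fit over all 11885 genes tested in the class gave a log2 fold change of 0.71 (SE 0.11). In that fit 2 genes, 0.0168% of those tested, were called higher after METH at an adjusted p under 0.05; Mybpc1 is one of them, while DESeq2 called 1 gene that is not Mybpc1. Nothing is read from these calls, because the comparison chose the gene.

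**Figure D1:**
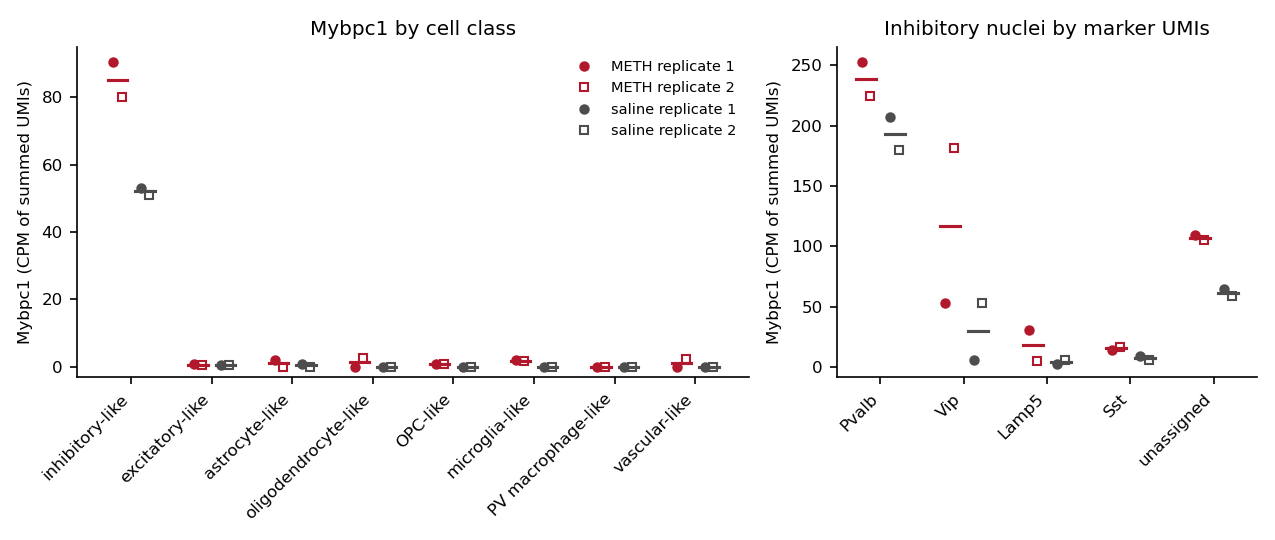
Mybpc1 level in CPM of summed UMIs, by cell class (left) and by interneuron subtype within the inhibitory class (right). Each symbol is 1 library, red for METH and grey for saline, filled circles for replicate 1 and open squares for replicate 2, and short lines are group means; the inhibitory class stands at 80.1 to 90.4 CPM after METH and 51.0 to 53.1 CPM after saline, and every other class is at 2.57 CPM or less.

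The share of inhibitory nuclei with at least 1 Mybpc1 UMI was 9.44% and 10.2% in METH replicates 1 and 2, against 5.75% and 7.27% in saline replicates 1 and 2. Nuclei with a UMI held 3.75 and 3.52 of them on average in the METH replicates, and 1.91 and 3.16 in the saline replicates. The median depth of all inhibitory nuclei was 3532 and 4066 UMIs in the METH replicates and 1824 and 4082 in the saline replicates. Only saline replicate 1 was thus shallow. Thinned to 1000 UMIs per nucleus, which left out 8 and 4 nuclei in the METH replicates and 153 and 3 in the saline replicates, the expected share with a Mybpc1 UMI was 4.84% and 5.17% after METH and 3.71% and 3.23% after saline. The METH libraries stayed above the saline libraries on this measure too, at a ratio of the means of 1.44, beside 1.5 before thinning. Excitatory neuron-like nuclei, which were deeper (medians of 5466 and 6598 UMIs in the METH replicates, 2767 and 6378 in the saline replicates), had a UMI in 0.430% and 0.286% of nuclei after METH and in 0.201% and 0.363% after saline.

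Outside the inhibitory class the METH and saline libraries could be tested, since those nuclei did not choose the gene. In excitatory neuron-like nuclei Mybpc1 was at 0.876 and 0.435 CPM in METH replicates 1 and 2 (21 and 10 UMIs), against 0.635 and 0.511 CPM in saline replicates 1 and 2 (17 and 13 UMIs). The groups overlapped, and the log2 fold change of 0.22 (SE 0.44) had an adjusted p of 1.00 by edgeR's quasi-likelihood test over 15033 genes, of which 0.0133% were called higher after METH; without METH replicate 1 the log2 fold change turned to -0.38. In astrocyte-, oligodendrocyte-, OPC- (oligodendrocyte precursor), microglia- and vascular-like nuclei the gene had between 0 and 4 UMIs in a library and did not pass the filter on low counts. Perivascular macrophage-like nuclei had 0 UMIs in 162 nuclei, too few to limit the level closely.

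Within the inhibitory class, nuclei were assigned to a subtype by the UMIs of 5 marker genes for each of Pvalb, Sst, Vip and Lamp5 cells. A nucleus needed at least 2 marker UMIs and at least 2 times those of the next subtype; 1422 nuclei stayed unassigned, 681 of them with fewer than 2 UMIs and 741 without the margin, and 460 of those assigned sat exactly at 2 UMIs. The defining genes are among the markers of the rule, so their levels describe the assignment and do not check the names. Pvalb was at 56.7 and 44.9 CPM in Pvalb-assigned nuclei of the METH replicates and 66.0 and 47.3 CPM in those of the saline replicates. It was at most 12.1 CPM in nuclei of any other subtype. In unassigned nuclei it was at 22.9 and 14.8 CPM in the METH replicates and 8.71 and 5.60 CPM in the saline replicates. Btbd11 at 750 to 905 CPM carried most of the Pvalb assignment, while in Pvalb-assigned nuclei Cox6a2 was at 0 to 2.27 CPM and Pthlh at 0. Vip, the gene of vasoactive intestinal peptide, was at 2613 and 2436 CPM in Vip-assigned nuclei of the METH replicates and 3006 and 2967 CPM in those of the saline replicates.

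Pvalb-assigned nuclei carried the highest Mybpc1 level of the 4 subtypes. They held it at 253 and 225 CPM in METH replicates 1 and 2 (214 and 120 UMIs), against 207 and 180 CPM in saline replicates 1 and 2 (91 and 114 UMIs). Over the 4 libraries this came to 216 ± 30.6 CPM in Pvalb-, 73.4 ± 75.3 CPM in Vip-, 11.5 ± 4.93 CPM in Sst- and 11.2 ± 13 CPM in Lamp5-assigned nuclei (SD, n = 4). Pvalb-assigned nuclei exceeded the mean of the other 3 subtypes by 3.34 on the log2 scale (SE 0.30, adjusted p = 5.78e-06, edgeR with the library as a block), in a comparison where 18.1% of 7925 genes were called higher in Pvalb-assigned nuclei. Mybpc1 had already been seen among the leading genes of a Pvalb cluster in these data, so this is not independent support for that place. All 6 pairs of subtypes were compared in the same edgeR fit, with p adjusted over the 7925 genes. Pvalb exceeded Vip by 1.60 on the log2 scale (SE 0.41, edgeR adjusted p = 0.0126; 15.8% of genes were called higher in Pvalb) and Vip exceeded Sst by 2.60 (SE 0.63, edgeR adjusted p = 0.0151; 9.77% called higher in Vip). Sst and Lamp5, next to each other in this order, differed by 0.03 (SE 0.83, edgeR adjusted p = 0.988; 12.2% called higher in Sst), which leaves room for a difference of either sign. Pvalb exceeded Sst by 4.20 (SE 0.35, edgeR adjusted p = 3.18e-06; 16.8% called higher in Pvalb) and Lamp5 by 4.23 (SE 0.49, edgeR adjusted p = 5.85e-05; 13.5%). Vip exceeded Lamp5 by 2.63 (SE 0.77, edgeR adjusted p = 0.0352; 9.73% called higher in Vip).

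In every subtype the METH mean was the higher one, with different overlap between libraries. Pvalb-assigned nuclei had both METH values above both saline values and a log2 fold change of 0.32 (SE 0.14), which was 0.00076 (SE 0.18) when at least 4 marker UMIs were asked for and 0.68 (SE 0.12) by sub-cluster type. They had a share with a UMI of 26.9% and 25.2% after METH and 22.6% and 24.8% after saline. Sst-assigned nuclei had 14.6 and 16.6 CPM in the METH replicates (24 and 21 UMIs), against 9.06 and 5.91 CPM in the saline replicates (11 and 9 UMIs), a log2 fold change of 1.07 (SE 0.41). Vip-assigned nuclei had 52.7 and 181 CPM in METH replicates 1 and 2 (14 and 34 UMIs), against 6.07 and 53.4 CPM in saline replicates 1 and 2 (1 and 13 UMIs). The Vip groups overlapped, METH replicate 1 lying at the level of saline replicate 2, and the log2 fold change of 1.63 (SE 0.52) went to 0.62 without METH replicate 2, 0.99 without saline replicate 1, 2.37 without METH replicate 1 and 4.00 without saline replicate 2. Lamp5-assigned nuclei held 14 and 3 UMIs in the METH replicates and 1 and 3 in the saline replicates, and the gene did not pass the filter there. Unassigned nuclei had 109 and 105 CPM after METH and 64.5 and 58.8 CPM after saline, without overlap. The share of all tested genes called higher after METH was 0.0134% in Pvalb-, 0.0203% in Sst- and 0.0215% in Vip-assigned nuclei; Mybpc1's own differences are descriptions here as above.

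The marker rule mixed cells with respect to Mybpc1. Of the 65 UMIs in Sst-assigned nuclei, 37 lay in nuclei that a finer clustering placed with Pvalb-like cells, and 3 in nuclei placed with Sst-like cells. The inhibitory nuclei were therefore divided into 22 sub-clusters, again without Mybpc1; this division was chosen after the subtype values had been seen. Each sub-cluster is called here by its leading gene other than Mybpc1. Being computed from all other genes of the same nuclei, the sub-clusters give levels as a description.

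Mybpc1 was concentrated in few of them. The Esr2-led sub-cluster, Pvalb-like and led by Esr2 (oestrogen receptor beta), Slit2 (a secreted guidance cue) and Drd2 (the D2 dopamine receptor) among others, held 247 nuclei, 5.55% of the class, and 694 Mybpc1 UMIs, 64.6% of those of the class. An unnamed sub-cluster led by Ltbp1, whose protein binds latent TGF-beta, held 92 nuclei and 124 UMIs. A Vip-like sub-cluster led by Wwtr1, a transcriptional coactivator of the Hippo pathway, and holding Htr3a (a serotonin-gated channel) and Penk (proenkephalin) among its leading genes, had 141 nuclei and 106 UMIs. Together these 3 made up 10.8% of inhibitory nuclei and 86.0% of the Mybpc1 UMIs. At the other end, 9 sub-clusters with 1407 nuclei had 0 UMIs, which allows up to 0.625 CPM over them. The main Pvalb-like sub-clusters, led by Egflam and Il1rapl2, stood at 24.9 and 24.1 CPM with the libraries summed, against 666 CPM in the Esr2-led one, so the high level of Pvalb-assigned nuclei came from 1 of 3 Pvalb-like sub-clusters.

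**Figure D2:**
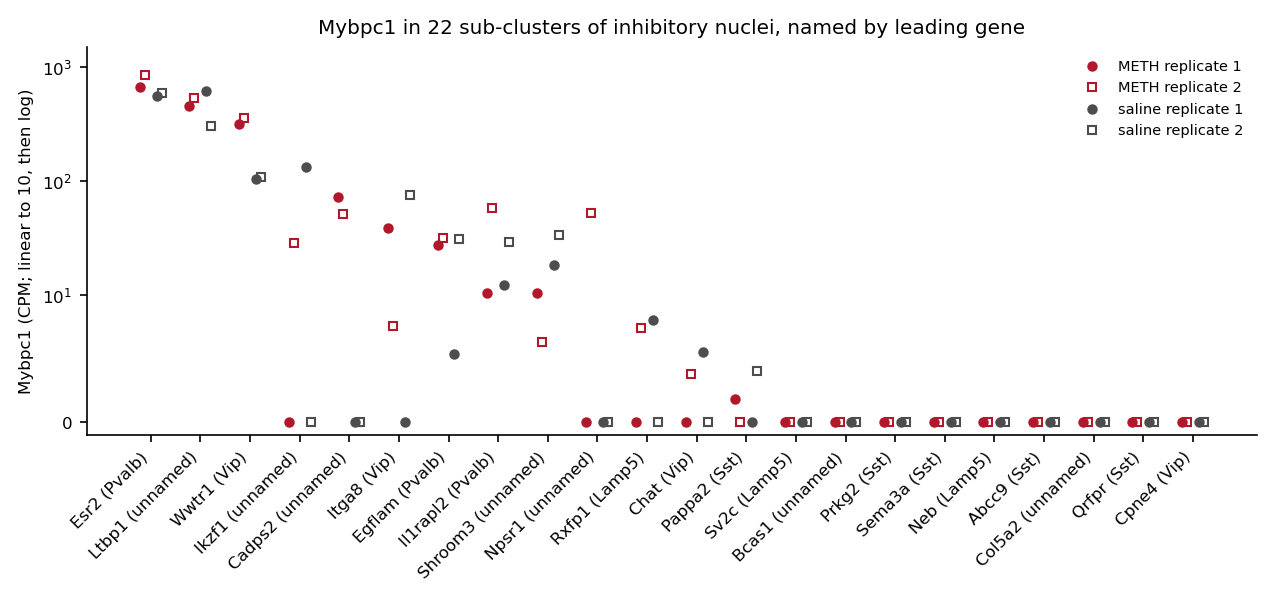
Mybpc1 level in each of the 22 sub-clusters of inhibitory nuclei, ordered by the level with the libraries summed; the scale is linear up to 10 CPM and logarithmic above it. Each symbol is 1 library and each label gives the leading gene and, in brackets, the subtype its markers give; 3 sub-clusters stand above 100 CPM in all 4 libraries and 9 are at 0 in all of them.

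In the Esr2-led sub-cluster the level was 673 CPM (287 UMIs, interval 597 to 756) and 850 CPM (160 UMIs, 723 to 992) in METH replicates 1 and 2. It was 558 CPM (119 UMIs, 462 to 667) and 596 CPM (128 UMIs, 497 to 708) in saline replicates 1 and 2. Both METH values lay above both saline values, at 761 ± 125 CPM after METH and 577 ± 27.0 CPM after saline (SD, n = 2 each), a ratio of 1.32, and the counting interval of METH replicate 1 overlapped those of both saline libraries. Most of these nuclei had the transcript: 72.0% and 86.1% after METH and 58.2% and 84.2% after saline held a UMI, at median depths of 4294 and 4694 UMIs in the METH replicates and 1984 and 5352.5 in the saline replicates. Nuclei with 6 or more Mybpc1 UMIs made up 24.4% and 33.3% in the METH replicates, against 1.10% and 26.3% in the saline replicates. Thinned to 1000 UMIs, the expected shares with a UMI were 39.1% and 52.6% after METH and 36.9% and 41.3% after saline, so on this measure METH replicate 1 lay between the 2 saline libraries.

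The Wwtr1-led sub-cluster showed the wider gap. It had 320 CPM (39 UMIs, interval 228 to 438) and 357 CPM (50 UMIs, 265 to 471) in METH replicates 1 and 2, against 105 CPM (7 UMIs, 42.1 to 215) and 109 CPM (10 UMIs, 52.5 to 201) in saline replicates 1 and 2. Here the libraries of a group lay close together, with means of 339 ± 26.2 CPM after METH and 107 ± 3.45 CPM after saline (SD, n = 2 each), a ratio of 3.16. No METH interval reached a saline interval, but narrowly, at 228 against 215 CPM. The intervals take each UMI as independent, while in METH replicate 1 as many as 10 UMIs came from a single nucleus. They are therefore too narrow, and nothing is read from the gap between them. A UMI was found in 45.7% and 45% of the Wwtr1-led nuclei after METH and in 15.0% and 23.1% after saline. After thinning it was found in 22.4% and 23.8% after METH and 9.97% and 9.40% after saline. These rest on 35 and 40 nuclei in the METH replicates and 40 and 26 in the saline replicates. Whether the METH difference itself differed between the Wwtr1-led and the Esr2-led nuclei was not tested.

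The Ltbp1-led sub-cluster did not separate the groups. It stood at 452 and 539 CPM in METH replicates 1 and 2 (37 and 34 UMIs) and at 612 and 308 CPM in saline replicates 1 and 2 (36 and 17 UMIs), the saline libraries enclosing the METH libraries. A smaller signal lay in an unnamed sub-cluster led by Cadps2, a regulator of dense-core vesicle release, with 72.2 and 51.3 CPM after METH and 0 UMIs in 69 and 26 nuclei after saline. Of its 17 UMIs in METH replicate 1, 15 came from 1 nucleus.

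**Figure D3:**
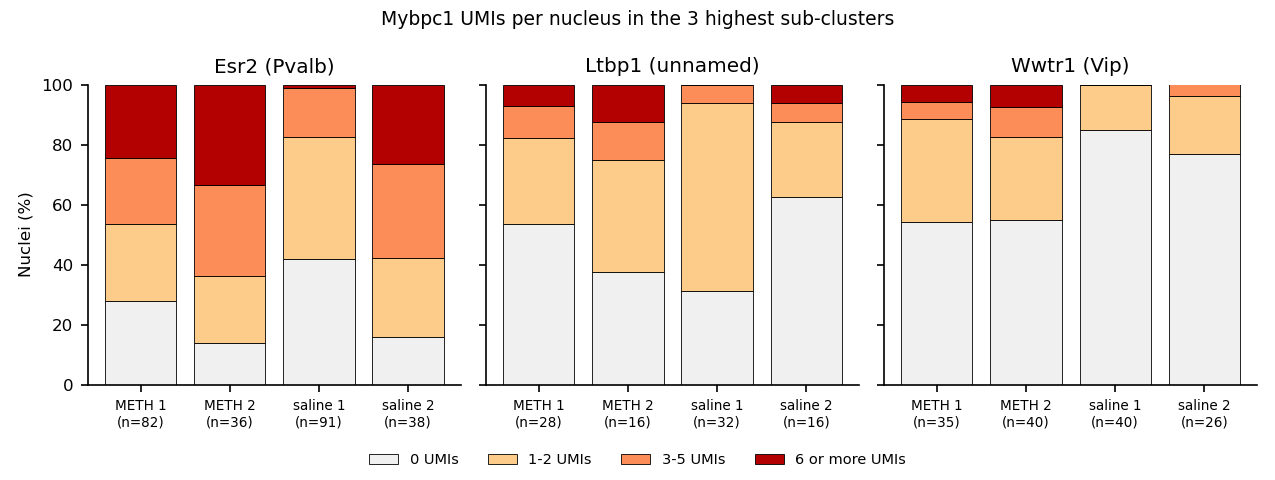
Share of nuclei with 0, 1 to 2, 3 to 5 and 6 or more Mybpc1 UMIs in the 3 sub-clusters highest in Mybpc1, by library; n is the number of nuclei and each bar adds up to 100%. In the Wwtr1-led sub-cluster 54.3% and 55.0% of nuclei had no UMI in the METH replicates, against 85.0% and 76.9% in the saline replicates; in the Esr2-led one, saline replicate 1, the shallowest library, had 1.10% of nuclei in the top class.

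A difference in the class level can come from the level within groups of nuclei or from the shares of those groups, and both were measured. The subtype shares of inhibitory nuclei overlapped between METH and saline for Pvalb (15.2% and 12.9% in METH replicates 1 and 2, 10.1% and 13.3% in saline replicates 1 and 2), Vip (8.83% and 8.27%, against 6.68% and 9.66%) and Lamp5 (10.9% and 15.2%, against 10.5% and 11.9%). Unassigned nuclei took 30.0% and 29.3% after METH and 37.0% and 27.7% after saline, (p = 1.00, exact permutation test, two-sided), the highest share being that of saline replicate 1, the shallowest library. An assignment needed at least 2 marker UMIs, and the part of depth in these shares was not tested. Sst-assigned nuclei took 35.2% and 34.3% after METH and 35.7% and 37.4% after saline, without overlap. The differences of METH minus saline were 2.31 percentage points for Pvalb (exact permutation test, two-sided, p = 0.667), 0.380 for Vip (p = 1.00), 1.84 for Lamp5 (p = 0.667) and -1.80 for Sst (p = 0.333). With 2 libraries against 2, the smallest p this test can give is 0.333, so no share could pass.

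The Esr2-led nuclei made up 7.10% of inhibitory nuclei in METH replicate 1 (exact binomial interval 5.69 to 8.74) and 4.51% in METH replicate 2 (3.18 to 6.19). In saline replicates 1 and 2 they made up 5.63% (4.56 to 6.87) and 4.32% (3.07 to 5.88). METH replicate 1 had the highest share, but METH replicate 2 lay between the saline libraries (exact permutation p = 0.667). The Wwtr1-led nuclei made up 3.03% and 5.01% after METH and 2.48% and 2.95% after saline, METH being above saline by a narrow gap (exact permutation p = 0.333). The Ltbp1-led nuclei stood at 2.42% and 2.01% after METH and 1.98% and 1.82% after saline.

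**Figure D4:**
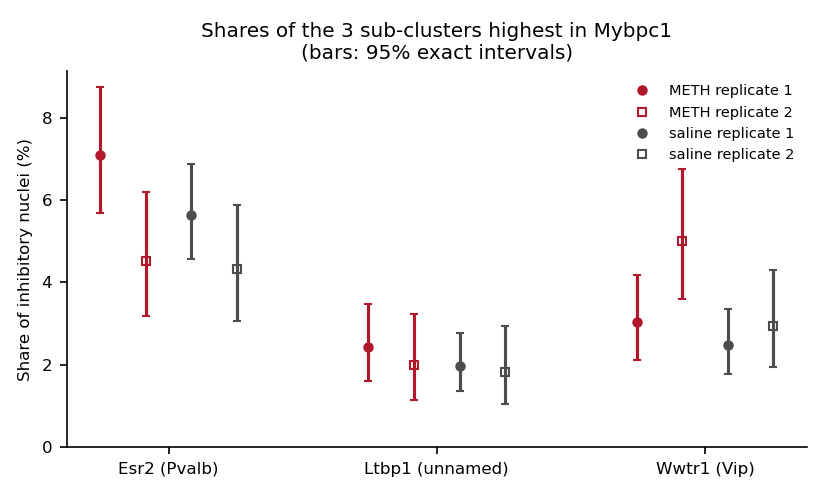
Share of inhibitory nuclei in the 3 sub-clusters highest in Mybpc1, in percent, with 95% exact binomial intervals. Each symbol is 1 library; METH replicate 1 has the highest share of Esr2-led nuclei at 7.10% and METH replicate 2 the highest share of Wwtr1-led nuclei at 5.01%, and most intervals overlap.

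The class difference of 33.2 CPM was then split into a part from levels and a part from shares. The level part is the level difference at the mean share of each group, and the share part the share difference at the mean level. Shares in this split are each group's shares of the UMIs of the class, not of its nuclei, so depth per nucleus enters them. With the marker subtypes and the unassigned nuclei as groups, 30.0 CPM (90.3%) came from levels and 3.21 CPM from shares. The largest level part was that of the unassigned nuclei, at 13.5 CPM. Pvalb gave 7.35, Vip 4.67, Sst 2.98 and Lamp5 1.51 CPM. Unassigned nuclei are a mixed group: 218 of their 387 Mybpc1 UMIs lay in Pvalb-like, 63 in Vip-like and 106 in unnamed sub-clusters. A shift in the mix inside that group would count as level here, so the 90.3% is not all change within a subtype. The marker subtypes are mixed too: 460 of the 539 Mybpc1 UMIs in Pvalb-assigned nuclei lay in the Esr2-led sub-cluster. A shift in the mix inside a subtype would likewise count as level. Over the 4 pairs of a METH and a saline library the level part ran from 27.3 to 32.7 CPM and the share part from -1.99 to 8.42 CPM. Set to common subtype shares, the class level was 84.1 and 83.4 CPM in the METH replicates and 55.6 and 51.6 CPM in the saline replicates.

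With the 22 sub-clusters as groups the split depended on the METH library. The level part was then 21.4 CPM (64.4%) and the share part was 11.8 CPM. Pairs with METH replicate 1 had level parts of 16.8 and 11.3 CPM beside share parts of 20.5 and 28.1 CPM. Most of that library's excess thus lay in the UMI shares of its sub-clusters, which reflect numbers of nuclei and their depth together. Pairs with METH replicate 2 had level parts of 31.2 and 26.2 CPM beside share parts of -4.20 and 2.83 CPM. At common sub-cluster shares the class level was 70.5 and 87.8 CPM in METH replicates 1 and 2, against 54.4 and 58.7 CPM in saline replicates 1 and 2, so METH stayed above saline in both libraries. By group, the Esr2-led nuclei gave 11.4 CPM through level and 8.91 CPM through share, and the Wwtr1-led nuclei 6.38 CPM through level and 2.64 CPM through share. Without the Esr2-led nuclei, the log2 fold change of the class was 0.78 (SE 0.17).

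**Figure D5:**
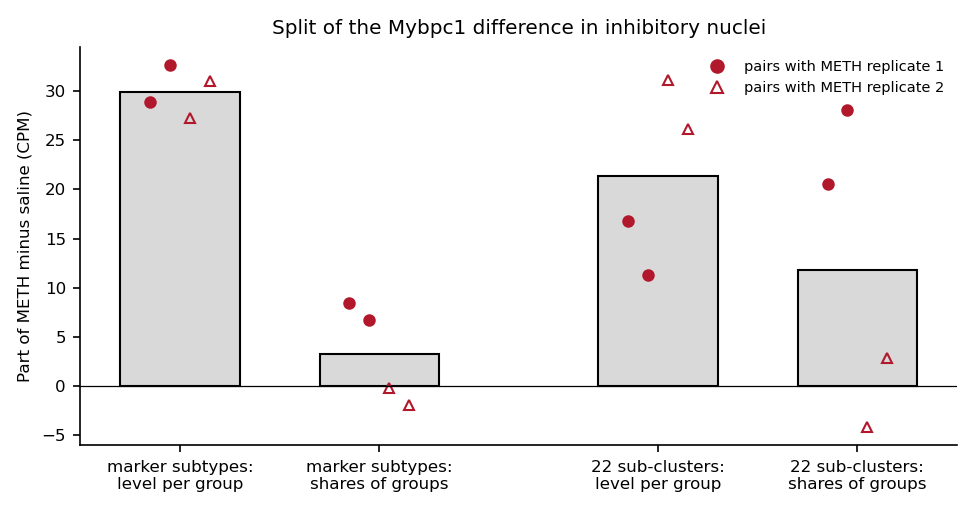
The METH minus saline difference in inhibitory nuclei, in CPM, split into a part from levels and a part from shares, for the marker subtypes (left pair) and the 22 sub-clusters (right pair). Shares here are shares of UMIs. Bars are means over the 4 pairs of libraries and symbols are single pairs, filled circles with METH replicate 1 and open triangles with METH replicate 2; in the sub-clusters the 2 METH libraries fall on different sides, with level parts of 16.8 and 11.3 CPM against 31.2 and 26.2 CPM.

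Of 37 genes of the family and the sarcomere, 33 were in the files and 30 had a UMI in inhibitory nuclei. There 7 passed the filter on low counts and 0 were called in either direction by edgeR, against 0.0168% of all genes tested called higher and 0% called lower. With so few genes tested and called, 0 calls says nothing about the list. Actn3 alone of the 7 had an unadjusted p under 0.05 by edgeR, at 0.0462, with a log2 fold change of -0.84. Of all 11885 genes tested, 478 had an unadjusted p under 0.05. DESeq2 also called 0 of the list. The median log2 fold change of the 7 was -0.08, with 3 above 0, beside a median of -0.0019 over all genes tested. The summed level of all 33 list genes in the files was 250 and 279 CPM in the METH replicates and 272 and 253 CPM in the saline replicates, with overlap. Mybpc2, the fast skeletal form, stood at 6.96 ± 1.10 CPM after METH and 6.14 ± 0.250 CPM after saline (SD, n = 2 each; log2 fold change 0.19, SE 0.30, adjusted p = 0.997 by edgeR). The other relatives were near absent, with 3 UMIs of the cardiac form Mybpc3, 1 of Mybph and 3 of Mybphl over all 4 libraries. The 4 highest members were Tpm1 and Tpm3, tropomyosins with forms outside muscle, Actn2, an actin cross-linker also found at synapses, and Neb, the giant thin-filament protein nebulin. They were at 89.0, 54.2, 67.3 and 23.3 CPM after METH and 96.4, 47.7, 62.1 and 24.4 CPM after saline, in the order Tpm1, Tpm3, Actn2, Neb.

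Marker lists of muscle and glia were summed in the inhibitory nuclei as well. The skeletal muscle markers summed to 14.8 and 16.3 CPM in the METH replicates and 14.9 and 15.4 CPM in the saline replicates, with overlap, Ckm (muscle creatine kinase) at 1 UMI and Tnnt3 (fast troponin T) at 0. Smooth muscle markers summed to 15.7 and 8.71 CPM after METH and 11.6 and 15.4 CPM after saline. Of the glial lists, 8 oligodendrocyte markers summed to 156 and 151 CPM after METH and 230 and 106 CPM after saline, and 8 microglia markers to 51.5 and 54.8 CPM after METH and 42.0 and 31.8 CPM after saline, with 4 of the 8 above in both METH libraries. The microglia markers' part in the Mybpc1 difference was not tested; microglia-like nuclei themselves held Mybpc1 at no more than 1.99 CPM. Leaving out 2 sub-clusters led by glial genes, Bcas1 and Ikzf1, of which 52 of 61 and 19 of 31 nuclei lay in saline replicate 1, gave a log2 fold change of 0.72 (SE 0.11) for the class.

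Genes with a distribution like that of Mybpc1 were looked for in 2 ways, by the correlation of log2(CPM + 1) over means of 4 libraries; groups of nuclei from the same libraries are not independent, and no p is given. Over 10 classes and subtypes the genes most like it among 11450 candidates included Tdrd5, a germline RNA-binding protein (r = 0.933), and Kcnab3, a beta subunit of potassium channels (0.932). Ddi2, Ankrd34b, Cox18, Eprs, Mlx, Cetn2 and Dld followed, down to 0.919; all of these but Mlx, highest in Vip-assigned nuclei, had their highest level in Pvalb-assigned nuclei. Over the 22 sub-clusters, a comparison added later, the highest of 11096 candidates were Smad3, a TGF-beta signal transducer (0.829), Cblb, a ubiquitin ligase (0.825), Tmem74 (0.813), Kcnab3 again (0.80) and Grin2c, an NMDA receptor subunit (0.794). Srl, sarcalumenin of the sarcoplasmic reticulum (0.780), Hhatl (0.778), Synm, the intermediate filament protein synemin (0.769), Itga7, a laminin-binding integrin of muscle (0.761), and Adarb1, an RNA-editing enzyme (0.741), completed the 10. Itga7 and Adarb1 were highest in the Esr2-led nuclei, and the rest of the 10 in the Ltbp1-led nuclei. Grin2c, for example, was at 96.0 CPM in the Ltbp1-led and 77.2 ± 8.70 CPM in the Esr2-led nuclei (SD, n = 4). Its median over the sub-clusters other than the Esr2-led one was 3.72 CPM. Some were low even at their highest, such as Tmem74 at 12.7 CPM and Hhatl at 24.9 CPM. Of these 10 genes 8 passed the filter in the inhibitory class, 6 of them with a positive METH over saline log2 fold change. Their median was 0.13 and their range -0.07 to 0.97, beside 49.5% positive and a median of -0.0019 over all genes tested. By edgeR 0 were called, beside 0.0168% of all genes tested called higher and 0% called lower. Itga7 alone had an unadjusted p under 0.05 by edgeR, beside 478 of all 11885 genes tested. With 8 genes tested, these counts say nothing about the set.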

How the data were processed

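The deposited files hold UMI counts per gene and barcode for 4 libraries, which the authors made with Cell Ranger 7.0.0, per the submitters' processing notes and the headers of the files; the counts are not normalized. The notes name the build hg38, while the gene identifiers are those of rat Ensembl, so no coordinates are printed. The libraries hold 10275 and 8933 barcodes (39552954 and 37758602 UMIs) in METH replicates 1 and 2 and 18958 and 8467 barcodes (44034787 and 38811323 UMIs) in saline replicates 1 and 2.

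Barcodes with under 500 genes, over 5% mitochondrial UMIs or the highest Scrublet doublet scores (0.8% per 1000 barcodes, since the automatic threshold marked 0 in saline replicate 1) were removed. The rest were clustered in Scanpy 1.11.5 (3000 variable genes without Mybpc1, 30 components, 20 neighbours, Leiden resolution 1) and named from marker lists; a name needed a score of 0.4 and at least 3 detected markers. Unnamed clusters held 258 and 224 nuclei of the METH replicates and 1851 and 124 of the saline replicates. Inhibitory nuclei were clustered again in the same way.

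Counts were summed per library and group of at least 50 nuclei and fitted over all genes with edgeR 4.0.16 (quasi-likelihood, robust, TMM, filterByExpr, two-sided) with Benjamini-Hochberg adjustment, in R 4.3.3; DESeq2 1.42.0 was an alternative. The SE is the log2 fold change over the square root of F. On simulated data the inhibitory fit recovered 80% of 2-fold and 100% of 4-fold changes and called 10 unchanged genes among 11672 fitted. The simulation gave every gene the same fixed dispersion and changed only genes above a minimum mean count. These rates therefore do not describe the spread of the real libraries or genes of low count. The replicate numbers were not taken as pairs: with 2 pairs and no label for what they share, the deviations correlated at -0.0393 over genes. Named genes were Mybpc1, its family, called members of the sarcomere list or else its 4 highest, the subtype markers and the 10 genes most like it, 1 of which is not reported here; the Actn3 value, the neighbours and the sub-clusters were added after values were seen. Mybpc1 and the lists were chosen with earlier results of these data known.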

Additional observations from a re-analysis of the deposited data

Results flagged for a closer look

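In an unnamed sub-cluster of inhibitory nuclei led by Shroom3 the order of the groups was opposite to that of the whole class. It had 10.5 and 6.34 CPM of Mybpc1 in METH replicates 1 and 2 (3 and 1 UMIs), against 18.5 and 33.9 CPM in saline replicates 1 and 2 (3 and 9 UMIs). The METH minus saline difference of the means was -17.75 CPM, and both METH libraries lay below both saline libraries, while 7 classes, subtypes and sub-clusters with at least 10 UMIs, some of them nested in each other, had both METH libraries above. In the other sub-clusters the libraries overlapped or all stood at 0. The counting intervals of all 4 libraries overlap (METH 2.17 to 30.8 and 0.161 to 35.3 CPM, saline 3.81 to 53.9 and 15.5 to 64.4 CPM), 16 UMIs stand behind the value, and the difference between the sub-clusters was not tested.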

How the results depend on the processing

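Mybpc1 in inhibitory nuclei had a higher METH level under every setting tried. The log2 fold change of 0.71 was 0.62 to 0.80 with 1 library left out and 0.71 with the replicate block. After thinning to 1000 UMIs another measure, the share of nuclei with a UMI, gave a log2 ratio of 0.53 (a ratio of 1.44, beside 1.5 before thinning). The genes called in the class, 2 at first, were 8 with no filter on low counts, 11 with the replicate block, 1 with DESeq2, 1 without the Esr2-led nuclei and 1 to 39 with 1 library left out (39 without METH replicate 1, 4 without METH replicate 2, 1 without either saline library). The cause was not tested. In Pvalb nuclei the log2 fold change of 0.32 was 0.00076 when at least 4 marker UMIs were asked for and 0.68 by sub-cluster type. In Sst nuclei it was 0.68 without the margin and 2.23 with 1 defining gene each. Leaving out 1 library gave 0.62 to 4.00 in Vip nuclei and -0.38 to 0.64 in excitatory nuclei. The Pvalb excess over other subtypes stayed called in all 15 alternatives run (3.16 to 3.63 with 1 library left out).

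The split moved with the grouping and with the METH library left out. The level and share parts were 21.4 and 11.8 CPM over the 22 sub-clusters, 22.5 and 10.7 at resolution 0.5, 22.2 and 11.0 at resolution 2, 23.3 and 9.92 with seed 2, 14.8 and 18.5 from the class at resolution 2, 20.1 and 13.3 with doublets kept, and 20.9 and 11.0 with at least 1000 genes. With 1 defining gene each they were 35.3 and -2.14, and the share part by sub-cluster type was -0.885. Leaving out 1 library moved the share part of the marker subtypes between -1.13 (without METH replicate 1) and 7.55. Over the sub-clusters the parts were 28.7 and -0.685 without METH replicate 1, 14.0 and 24.3 without METH replicate 2, 18.7 and 15.5 without saline replicate 1, and 24.0 and 8.16 without saline replicate 2. With UMIs per nucleus as the level and shares of nuclei as the shares, 92.7% of the difference came from levels by marker subtype. By sub-cluster it was 79.3%. Levels on that scale carry the depth per nucleus. The share differences turned to -0.509 percentage points for Pvalb by sub-cluster type, and to 1.19 (at least 4 UMIs) and 3.89 (1 gene each) for Sst. For Vip they were 2.77 by sub-cluster type, 4.32 with 1 gene each and -1.11 to 1.87 with 1 library left out, and for Lamp5 -0.286 to 3.97. Fits of Pvalb with 1 gene each, of Vip with at least 1000 genes, and of Sst with at least 4 UMIs or by sub-cluster type gave no value, for too few nuclei or counts. In Lamp5 nuclei the log2 fold change could be had in 6 settings, from 1.05 without the margin to 2.66 without METH replicate 2. Saline replicate 1, the library of lowest depth, limits its shares with a UMI.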
